A study of Mus musculus with 56 samples.

Results

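The ion and metal carriers described here belong to 8 solute carrier families, Slc4, Slc8, Slc9, Slc12, Slc24, Slc26, Slc30 and Slc39. Their members were taken by gene symbol, as every probe set listing a single gene whose symbol starts with one of these family names followed by a number. The rule gave 68 probe sets for 67 genes (Slc12a4 had a pair) of the 41155 probe sets on the array, and 7 further probe sets listing a carrier together with another gene were left out. Slc4a1ap, Slc9a3r1 and Slc9a3r2 are adaptor or accessory proteins rather than carriers, and they entered because their symbols fit the rule. Slc4a7 and Slc30a10 were not analysed here.

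Expression was read on Affymetrix arrays (Mouse Gene 2.1 ST) from 3 brain regions, hippocampus, striatum and cerebellum, and from liver. All mice were adult males of the C57BL/6N strain. By genotype, Del/+ mice carried 1 copy less of the engineered Sult1a1–Spn interval, homologous to human 16p11.2, Dup/+ mice carried 1 copy more, and wt mice were the controls. The rearrangements were made by Cre-loxP engineering, and every cell of these heterozygous mice holds the altered copy number. Hippocampus and striatum had 4 Del/+, 8 wt and 4 Dup/+ arrays each, and cerebellum and liver had 3 Del/+, 6 wt and 3 Dup/+ arrays each. The question asked of the carriers was whether their signal followed the copy number of the interval in each tissue, and, in striatum, how much of the signal followed the amount of choroid plexus in the dissected tissue.

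Solute carriers move ions and small molecules across membranes. The Slc4 proteins carry bicarbonate, Slc9 proteins exchange sodium for protons, Slc8 and Slc24 proteins extrude calcium against sodium, Slc12 proteins carry chloride with cations, Slc26 proteins carry anions, and Slc30 and Slc39 proteins move zinc and related metals out of and into the cytosol, respectively. The choroid plexus, the epithelium in the brain ventricles that secretes cerebrospinal fluid, relies on bicarbonate, chloride and cation carriers, so that a brain sample holding more or less of this tissue is a matter of interest for these families. Bulk tissue was measured, and fewer cells of a type and less RNA per cell cannot be told apart in any of the values below.

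Promoter sequences are shown for Slc4a5 and Slc4a2, the members that followed the choroid plexus markers in all 3 brain regions with p under 0.05, and for Slc30a3, the member with the smallest p in cerebellum. Each is the 250 bases before an annotated start in RefSeq (GRCm38.p6), written 5′ to 3′ along the gene. Slc4a5 lies at chr6:83237125-83237374 on the plus strand, Slc4a2 at chr5:24424982-24425231 on the plus strand, and Slc30a3 at chr5:31108245-31108494 on the minus strand. Capitals mark TATAA on either strand and GGGCGG in Slc4a5, and TGCGCNC, a core of the metal response element, in Slc30a3. Slc4a2 held neither TATAA nor GGGCGG. The promoter entries hold a second start for Slc4a2 and for Slc30a3, and the windows shown are 1 of 2 for each. The Slc4a5 window and both Slc4a2 windows lie inside the gene spans of RefSeq, which begin at chr6:83207580 and chr5:24423761. Starts farther upstream in these genes are not covered by the windows. The other Slc4a2 window (chr5:24425594-24425843) also held neither motif, and the other Slc30a3 window (chr5:31093528-31093777) held no metal response element core and had GGGCGG at 2 places.
Slc4a5: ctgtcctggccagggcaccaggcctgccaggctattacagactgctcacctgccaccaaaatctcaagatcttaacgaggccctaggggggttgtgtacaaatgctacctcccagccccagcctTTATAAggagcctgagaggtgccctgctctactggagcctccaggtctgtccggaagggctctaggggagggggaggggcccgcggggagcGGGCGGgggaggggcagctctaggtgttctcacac
Slc4a2: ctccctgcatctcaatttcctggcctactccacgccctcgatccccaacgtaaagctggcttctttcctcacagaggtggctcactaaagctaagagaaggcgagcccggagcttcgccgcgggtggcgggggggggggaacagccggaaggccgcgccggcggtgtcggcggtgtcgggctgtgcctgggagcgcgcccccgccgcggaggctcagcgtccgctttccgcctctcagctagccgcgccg
Slc30a3: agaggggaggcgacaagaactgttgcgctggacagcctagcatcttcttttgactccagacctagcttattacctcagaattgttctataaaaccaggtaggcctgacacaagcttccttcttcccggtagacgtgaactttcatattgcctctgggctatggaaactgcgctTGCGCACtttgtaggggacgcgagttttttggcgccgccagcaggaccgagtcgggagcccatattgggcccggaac

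Of all 32851 promoter entries of this length, read on both strands, 22.8% held TATAA, 32.7% held GGGCGG and 21.4% held the metal response element core, searched as TGCGCNC. The same search counted TGCACNC as a match. TAATCC, the core bound by Otx2 and its relatives, was in 6.25% of all entries and in neither the Slc4a5 nor the Slc4a2 window. Of the 67 member genes, 54 had a promoter entry. A match says only that these letters stand in the window.

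Signals are on the log2 scale. A background level was set in each tissue as the 95th percentile of the wt means of 1400 probe sets for olfactory and vomeronasal receptors, and the wt mean of 59 members lay above it in hippocampus, 58 in striatum, 59 in cerebellum and 49 in liver. After the filter on dim and flat probe sets, 45 members were tested in the brain regions and 35 in liver. The tested brain members were 5 of 9 Slc12, 3 of 4 Slc24, 8 of 11 Slc26, 2 of 8 Slc30, 9 of 14 Slc39, 7 of 10 Slc4, 3 of 3 Slc8 and 8 of 9 Slc9 probe sets. Slc12a5, the neuronal potassium-chloride cotransporter, and Slc4a10, a sodium-bicarbonate carrier of neurons and choroid plexus, were bright (wt means of 10.19 and 9.83 in striatum) but too even across the brain arrays to pass the filter.

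The genotype labels were checked on 26 genes of the engineered interval, whose mean had a slope of 0.42, 0.42, 0.46 and 0.36 per copy in hippocampus, striatum, cerebellum and liver (exact two-sided permutation tests, p = 2.22e-06 in the first pair and 0.0001082 in the other, each the smallest its design allows). Marker lists were compared by their mean signal, since most markers were above background in more than 1 brain region (all 7 measured striatal projection neuron markers in both striatum and hippocampus, and 7 of 10 hippocampal neuron markers in striatum and in cerebellum). In wt arrays the striatal projection neuron mean was 10.38 to 10.88 in striatum, 6.36 to 6.73 in hippocampus and 5.61 to 5.83 in cerebellum. The hippocampal neuron mean was 7.90 to 8.26 in hippocampus against 5.95 to 6.25 in striatum, and the cerebellar neuron mean was 10.52 to 10.64 in cerebellum against 5.73 to 6.15 in hippocampus. Hepatocyte markers in liver averaged between 12.28 and 12.45 in every array. Some arrays stood apart. In striatum, Dup/+ 21 and Dup/+ 47 had thalamus and midbrain marker means of 7.71 and 8.01 against 5.74 to 6.35 in the other arrays, with striatal projection neuron means of 9.02 and 9.67 against 10.38 to 10.88. In hippocampus, Dup/+ 47 had a striatal projection neuron mean of 9.60 against 6.36 to 6.73 in the others. Mouse number 17, as read from the array titles, is labelled wt in hippocampus and liver and Del/+ in cerebellum. Array plates, read from the array numbers in runs of 24, held all 3 genotypes of every tissue.

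No carrier followed copy number past a 5% false discovery rate (FDR) in any tissue. In hippocampus 0 of 45 members passed, against 0.165% of all tested probe sets, and in striatum 0 of 45, against 0.139%. In cerebellum 0 of 45 passed, against 0.134%, and in liver 0 of 35, against 0.0843% (limma, Benjamini-Hochberg adjustment over all tested probe sets of the tissue). At an unadjusted p under 0.05, striatum had 8 members with a positive slope, against 5.03% of all probe sets (17.8% of the members), and 1 with a negative slope, against 4.01%. Hippocampus had 1 positive and 0 negative, against 3.51% and 2.8%. Cerebellum had 0 positive and 1 negative, against 3.38% and 2.87%, and liver had 0 positive and 1 negative, against 2.83% and 4.36%. The median slope of the members was 0.02 per copy in striatum, with 29 of 45 positive, a share of 64.4%, beside a median of 0.00 and 51.3% positive over all probe sets. In liver it was 0.02, with 24 of 35 positive, a share of 68.6%, beside -0.02 and 44.7% over all probe sets. It was -0.00298 in hippocampus (46.7% positive) and -0.00203 in cerebellum (48.9%), beside all-probe-set medians of 0.01 and 0.00 and shares of 52.6% and 50.5%.

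**Figure D1:**
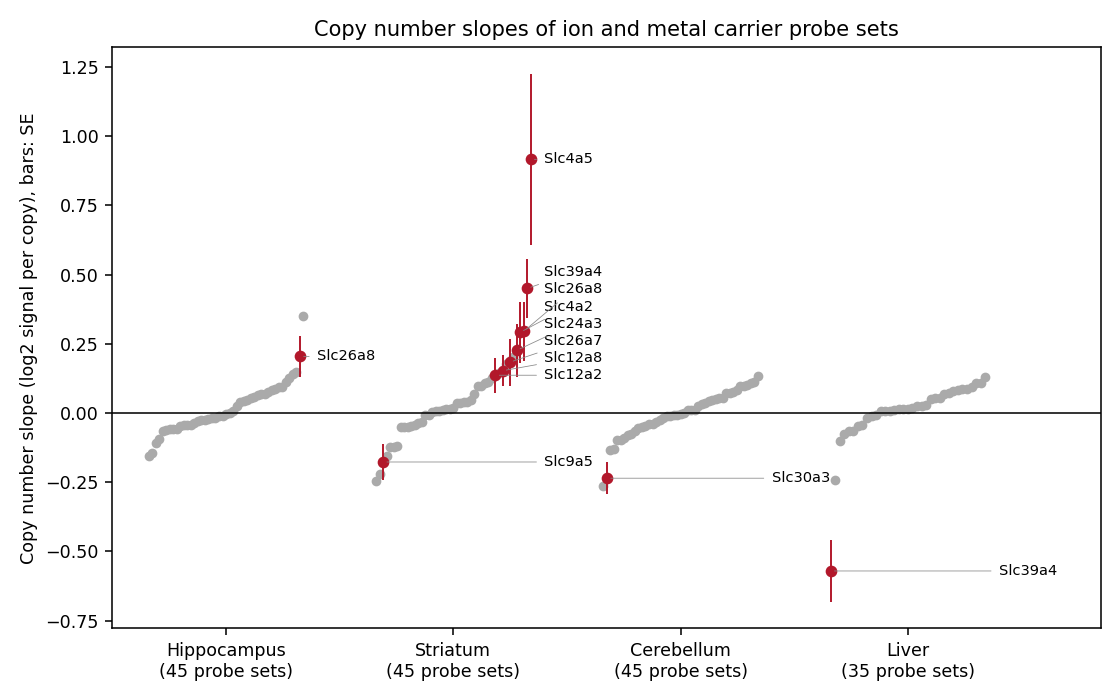
Copy number slopes (log2 signal per copy) of the tested carrier probe sets in each tissue, each point 1 probe set ordered by slope. Red points with SE bars and names are those at an unadjusted p under 0.05, 1 in hippocampus, 9 in striatum, 1 in cerebellum and 1 in liver, and none of them passed 5% FDR.

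Among the zinc importers, Slc39a4, which takes up zinc across the plasma membrane and is best known from the intestine, had the smallest p of all members in both striatum and liver, with slopes of opposite sign. In striatum its signal was 3.93, 3.996, 4.21 and 4.45 in the Del/+ arrays, 3.84 to 4.83 with a median of 4.32 in the wt arrays, and 4.65, 5.03, 5.19 and 5.32 in the Dup/+ arrays. The Del/+ and Dup/+ values did not overlap, 3 of the Dup/+ arrays lay above every wt array, and the Del/+ values lay within the wt range. The background level in striatum was 4.09, so the lower Del/+ and wt values of this gene were below it. The slope was 0.45 per copy (SE 0.106, adjusted p = 0.229), and it was positive within each of the 3 plates, between 0.22 and 0.71. Without Dup/+ 21 and Dup/+ 47 it was 0.37.

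In liver, where the gene was far above background, the order was turned. Slc39a4 read 9.32, 9.40 and 9.53 in the Del/+ arrays, 8.51 to 9.30 with a median of 8.87 in the wt arrays, and 7.86, 8.32 and 8.65 in the Dup/+ arrays. All Del/+ arrays were above all wt arrays, and 2 of the Dup/+ arrays were below all of them. The slope was -0.57 per copy (SE 0.112, adjusted p = 0.147), with adjusted p between 0.0763 and 0.355 over the alternatives run, and it was -0.77, -0.50 and -0.44 within the 3 plates. Against wt, the Del/+ difference was 0.56 (SE 0.202, adjusted p = 0.929) and the Dup/+ difference -0.58 (SE 0.202), so neither genotype passed alone. Of the marker lists, astrocyte markers, 4 of 8 above background in liver, averaged 4.73 to 4.94 in Del/+, 4.92 to 5.11 in wt and 5.08 to 5.201 in Dup/+ livers, and the 2 of them that were tested were Aqp4, a water channel, which rose by 0.94 per copy (SE 0.127, adjusted p = 0.00898), and Gja1, with a slope of -0.02 (SE 0.0997). Bile duct markers averaged 3.90 to 4.26 in Del/+, 3.77 to 3.995 in wt and 3.94 to 4.08 in Dup/+ livers. Hepatocyte markers averaged 12.34 to 12.45 in Del/+, 12.28 to 12.35 in wt and 12.29 to 12.35 in Dup/+ livers. The part of any of these lists in the Slc39a4 values was not tested. In hippocampus and cerebellum Slc39a4 had slopes of 0.09 (SE 0.089) and -0.02 (SE 0.12). The striatal and liver tables were normalized separately, and the difference between these tissues was not tested.

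**Figure D2:**
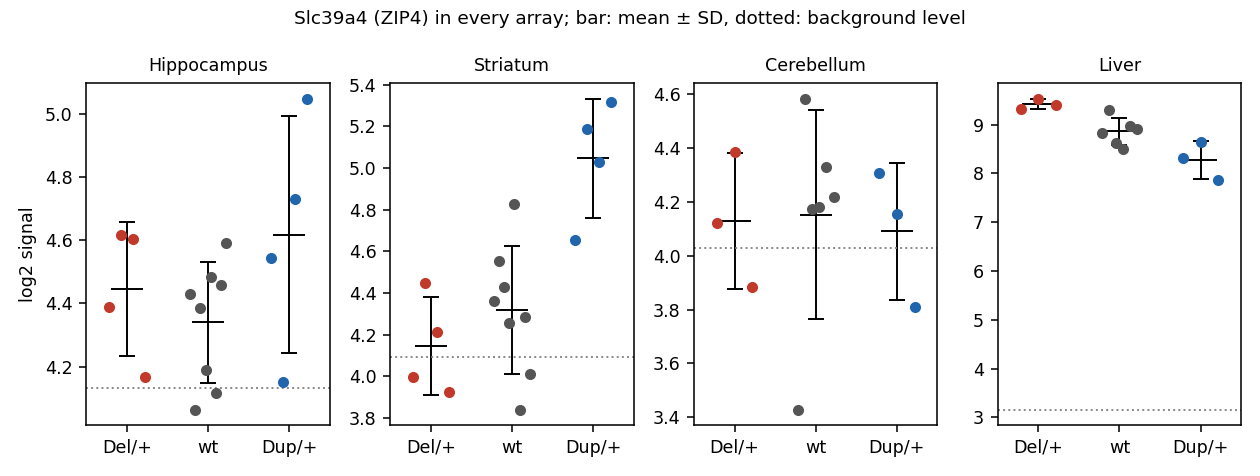
Slc39a4 log2 signal in every array of the 4 tissues by genotype, with the mean and SD of each group and a dotted line at the background level. Striatal Dup/+ arrays reach 4.65 to 5.32 against 3.93 to 4.45 in Del/+, and liver shows the opposite order, with Del/+ at 9.32 to 9.53 and Dup/+ at 7.86 to 8.65.

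The other liver carriers showed smaller differences. Slc39a14, a hepatic importer of zinc, iron and manganese, read 8.72, 8.96 and 9.30 in Del/+, 9.04 to 9.32 in wt and 8.95, 9.08 and 9.36 in Dup/+ livers, and these ranges overlapped (slope 0.07, SE 0.0886). Slc39a8, which carries manganese and zinc, had a wt mean of 7.02 and did not pass the variance filter. Slc39a5, a zinc importer, had a slope of 0.13 (SE 0.121), and Slc26a6, an anion exchanger, had one of -0.24 (SE 0.144). The probe sets of Slc12a4 differed in direction, with slopes of 0.08 (SE 0.152) and -0.06 (SE 0.105). Slc12a7, a potassium-chloride cotransporter, had a slope of 0.11 (SE 0.0825), Slc9a9, an endosomal sodium-proton exchanger, one of -0.10 (SE 0.0943), and Slc8a3, a sodium-calcium exchanger, one of 0.11 (SE 0.103). In the comparisons of single genotypes with wt, 0 of 35 members passed 5% FDR for Del/+ and 0 of 35 for Dup/+, as did 0% and 0% of all probe sets, and only Slc39a4 was at an unadjusted p under 0.05 in each, against 5.15% and 3.77%. After Slc39a4, the smallest p values for Del/+ were those of Slc4a1, the red cell anion exchanger (-0.36, SE 0.219), and Slc4a11 (0.22, SE 0.154), and for Dup/+ those of Slc4a1 (-0.34, SE 0.219) and Slc12a4, a potassium-chloride cotransporter (0.37, SE 0.256).

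The bicarbonate carriers of the striatum came next. Slc4a5, an electrogenic sodium-bicarbonate cotransporter of the choroid plexus epithelium, read 3.96, 5.02, 5.50 and 7.33 in Del/+, 4.66 to 6.77 with a median of 6.12 in wt, and 7.03, 7.22, 7.24 and 7.64 in Dup/+ striatum. Every Dup/+ array was above every wt array, and the Del/+ group reached from the lowest array of all to the level of the Dup/+ group, through Del/+ 23. Its slope was 0.92 per copy (SE 0.309, adjusted p = 0.439), and 0.78, 0.86 and 1.40 within the 3 plates.

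Slc4a2, an anion exchanger found on the blood side of the same epithelium and in many other cells, read 5.71, 6.09, 6.20 and 6.77 in Del/+, 5.87 to 6.47 with a median of 6.19 in wt, and 6.49, 6.62, 6.87 and 7.13 in Dup/+ striatum. The Dup/+ arrays lay above all wt arrays, and the Del/+ arrays spread on both sides of the wt range. Its slope was 0.29 (adjusted p = 0.478), lay between -0.00334 and 0.58 within plates, and was 0.14 without Dup/+ 21 and Dup/+ 47. Slc12a2, the sodium-potassium-chloride cotransporter, had Del/+ arrays at 9.22 to 9.79, wt arrays at 9.43 to 9.90 and Dup/+ arrays at 9.63 to 9.82, a slope of 0.14 (SE 0.0635) with overlapping groups.

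The remaining members of the 9 came from several families. Slc26a8, an anion transporter known from sperm, read 4.91, 5.27, 5.73 and 5.81 in Del/+ and 5.83, 5.95, 5.98 and 6.32 in Dup/+ striatum, with the wt arrays at 5.14 to 6.05, so the Del/+ and Dup/+ groups did not overlap each other and both overlapped wt. Its slope was 0.29 (adjusted p = 0.472). Slc12a8 had a slope of 0.15 (SE 0.0563), with Del/+ arrays at 4.17 to 4.49 and Dup/+ arrays at 4.46 to 4.95, which overlapped. Slc26a7, an anion carrier, had one of 0.18 (SE 0.0857) on a wt mean below background. The single negative slope was that of Slc9a5, a neuronal sodium-proton exchanger, which read 6.95, 7.09, 7.11 and 7.20 in Del/+ and 6.55, 6.63, 6.75 and 7.003 in Dup/+ striatum with the wt arrays at 6.66 to 7.29, and all 3 groups overlapped (slope -0.18, adjusted p = 0.472).

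Slc24a3, a potassium-dependent sodium-calcium exchanger, lost most of its striatal slope without the arrays that stood apart. It read 8.23, 8.24, 8.38 and 8.56 in Del/+, 8.19 to 8.68 in wt, and 8.29, 8.57, 9.04 and 9.30 in Dup/+ striatum, the highest values being those of Dup/+ 21 and Dup/+ 47, the arrays with the high thalamus and midbrain markers. The slope was 0.23 (adjusted p = 0.504), and 0.03 without them. With the thalamus and midbrain marker mean in the model, an alternative chosen after seeing the data, it was 0.05. Without both arrays the slope of Slc4a5 was 0.75, that of Slc26a8 0.25, that of Slc12a8 0.11, that of Slc9a5 -0.13 and that of Slc12a2 0.11. Leaving out both brought the members at an unadjusted p under 0.05 from 9 to 4, of which Slc39a4 was the only 1 among the original 9, and leaving out Dup/+ 21 or Dup/+ 47 alone brought them to 4 and 5. Over all probe sets the share at that level went from 9.04% to 5.72% without both, 6.95% without Dup/+ 21 and 6.24% without Dup/+ 47, beside 20% of the members at first and then 8.89%, 8.89% and 11.1%. Of the 45 slopes, 11 took the other sign without both arrays, and 2 of these were at an unadjusted p under 0.05 without them, Slc26a10 (-0.12, then 0.23) and Slc24a4 (-0.03, then 0.22). Changes of sign were not counted over all probe sets.

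Set against wt alone, the striatal Dup/+ arrays had 0 of 45 members past 5% FDR, against 0.0103% of all probe sets, and 7 at an unadjusted p under 0.05, a share of 15.6% against 13% of all probe sets. These were Slc39a4 (0.73, SE 0.169), Slc4a2 (0.59, SE 0.173), Slc24a3 (0.45, SE 0.154) and Slc4a5 (1.47, SE 0.526) with higher signal, and Slc4a11 (-0.56, SE 0.185), Slc26a10 (-0.59, SE 0.247) and Slc9a2, a sodium-proton exchanger (-0.38, SE 0.173), with lower signal. Slc4a11, a membrane carrier known from the corneal endothelium, read 5.39, 5.42, 5.95 and 6.23 in Dup/+ against 5.78 to 6.58 in wt striatum, and its lowest pair were again Dup/+ 21 and Dup/+ 47. Slc26a10 read 6.04 and 6.23 in Dup/+ 47 and Dup/+ 21, against 7.005 to 7.71 in wt, while Dup/+ 54 and Dup/+ 19 read 7.16 and 7.76. Without Dup/+ 21 and Dup/+ 47 the differences were -0.22 for Slc4a11, 0.07 for Slc26a10, -0.22 for Slc9a2 and 0.37 for Slc4a2. Without Dup/+ 19, 3 members passed 5% FDR, Slc39a4 (0.86, adjusted p = 0.0432), Slc24a3 (0.62, adjusted p = 0.0459) and Slc26a10 (-0.91, adjusted p = 0.0449), along with 409 of all probe sets (2.11%). The remaining Dup/+ arrays in that fit were 21, 47 and 54. Del/+ against wt gave 0 of 45 members at 5% FDR, against 0.103%, and 0 at an unadjusted p under 0.05, against 3.69%, the smallest p being those of Slc12a4 (0.29, SE 0.169), Slc4a1 (0.18, SE 0.114) and Slc12a2 (-0.17, SE 0.113).

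The choroid plexus content of each brain array was scored as the mean log2 signal of 19 measured choroid plexus markers, which hold no carrier of these families. In the wt arrays 16 of the 19 were above background in each region, Cldn2, Steap1 and Wfikkn2 being the exceptions, and transthyretin (Ttr) ranged from 8.29 to 12.99 over the striatal arrays. The score was 4.72, 5.28, 5.41 and 6.83 in Del/+, 5.03 to 6.43 with a median of 5.84 in wt, and 6.42, 6.45, 6.56 and 7.01 in Dup/+ striatum. Of the Dup/+ arrays, 3 lay above every wt array and Dup/+ 54 just under the highest, and Del/+ 23 had the second highest score of all. The slope of the score on copy number was 0.53 in striatum (exact two-sided permutation test, p = 0.0345, adjusted over the 3 regions 0.1035), 0.16 in hippocampus (p = 0.403) and -0.27 in cerebellum (p = 0.325). The marker list was chosen with earlier results of these data known, so these p values are not those of an independent test. With each Del/+ or Dup/+ array left out in turn, the p of the exact permutation test in striatum was 0.00131 to 0.096, and it was under 0.05 only without Del/+ 23. In striatum, 13 of 17 tested choroid plexus markers had a positive slope at an unadjusted p under 0.05, against 5.03% of all probe sets. A negative slope at that level was found for 0, against 4.01%, and 0 passed 5% FDR. Their median slope was 0.57, beside 0.00 over all probe sets. These markers make up the score, so their count adds nothing independent to its slope.

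Across the 16 striatal arrays, the signal of several carriers followed this score. In a model with copy number, 1 of 45 members passed 5% FDR on the score, against 0.392% of all probe sets, while 5 members had a positive coefficient at an unadjusted p under 0.05, against 3.32%, and 2 a negative one, against 2.5%. Slc4a5 rose by 1.51 per unit of score (SE 0.0788, adjusted p = 1.58e-08), and by 1.52 in the wt arrays alone (adjusted p = 0.00303). Slc4a2 had a coefficient of 0.40 (adjusted p = 0.122), Slc12a4 one of 0.38 (adjusted p = 0.19), Slc39a4 one of 0.36 (adjusted p = 0.276) and Slc12a2 one of 0.17 (SE 0.0659). The negative coefficients were those of Slc26a8 (-0.28, SE 0.114) and Slc8a2, a neuronal sodium-calcium exchanger (-0.18, SE 0.081). With the array plate as a block, the Slc4a5 coefficient was 1.47 (adjusted p = 6.89e-07).

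Correlations with the score were computed for the 45 members over the 16 arrays (100000 permutations, adjusted over the 45). For Slc4a5, Pearson's r was 0.988 (permutation p = 1e-05, adjusted 0.00045) and Spearman's rho 0.985 (permutation p = 1e-05), and r was 0.984 without the arrays farthest from the median score, Del/+ 11 and wt 29. The p of 1e-05 is the smallest these permutations can give. For Slc4a2, r was 0.835 (permutation p = 4e-05), rho 0.862 (permutation p = 4e-05) and r 0.848 without those arrays. For Slc39a4, r was 0.806 (permutation p = 0.00017), rho 0.841 (permutation p = 8e-05) and r 0.754 without them. For Slc12a2, r was 0.743 (permutation p = 0.00125), rho 0.735 (permutation p = 0.0016) and r 0.67 without them. These 4 had adjusted permutation p values under 0.05 by both measures. Slc8a2 (r -0.634) and Slc12a4 (r 0.647) did so by Pearson's r but not by Spearman's rho. Correlations were not computed over all probe sets, so whether these counts are particular to the carriers was not tested. They also left out copy number, which went together with the score, and so cannot separate the score from genotype. In the model with copy number, adjusted over all tested probe sets, only Slc4a5 passed the FDR threshold on the score. Plates hold at most 6 striatal arrays, and no correlation is given within them.

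**Figure D3:**
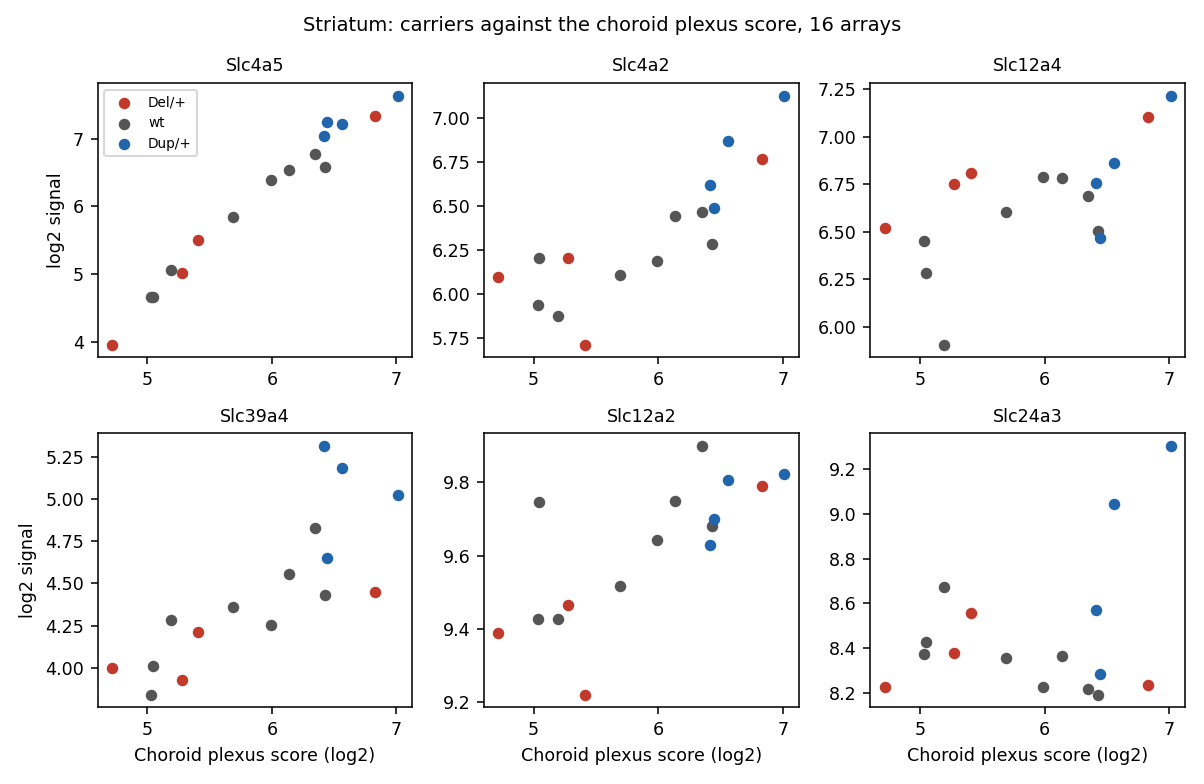
Log2 signal of 6 carriers (vertical axes) against the choroid plexus score of the array (horizontal axes, log2) in the 16 striatal arrays, coloured by genotype. Slc4a5 follows the score over its whole range, with Del/+ 23 (score 6.83) among the Dup/+ arrays, whereas the highest Slc24a3 values, 9.04 and 9.30, stand apart from arrays of similar score.

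Once the score was in the model, the copy number slopes of the 4 carriers that followed it by both correlation measures were smaller. These 4 were picked by correlation with a score that rose with copy number in the same arrays, a choice that favours smaller slopes. The losses below describe the fit, and the part of choroid plexus content in these slopes was not tested. That of Slc4a5 went from 0.92 to 0.12 (SE 0.0774), a loss of 86.5%, that of Slc4a2 from 0.29 to 0.08 (SE 0.0914), a loss of 71.8%, and that of Slc12a2 from 0.14 to 0.05 (SE 0.0647), a loss of 66.5%. Slc39a4 lost 42.1%, from 0.45 to 0.26, and stayed at an unadjusted p under 0.05 (SE 0.0941, adjusted p = 0.815). Of those that followed it by Pearson's r alone, Slc8a2 went from -0.12 to -0.03 (SE 0.0796), and Slc12a4 turned from 0.02 to -0.18 (SE 0.0932), a larger size of the other sign. Others kept or gained slope. Slc26a8 went from 0.29 to 0.44 (SE 0.112), Slc9a5 from -0.18 to -0.22 (SE 0.0774), Slc12a8 from 0.15 to 0.16 (SE 0.0684), Slc24a3 from 0.23 to 0.22 (SE 0.115) and Slc26a7 from 0.18 to 0.20 (SE 0.104). Slc9a8, a sodium-proton exchanger of the Golgi, went from 0.11 (SE 0.0522) to 0.17 (SE 0.057).

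Counted over the family, 0 of 45 members passed 5% FDR with the score in the model, against 0.113% of all probe sets. Of the 45, 4 had a positive slope at an unadjusted p under 0.05, against 3.02%, and 1 a negative slope, against 2.33%, so that 9 members became 5, with 4 in common. Of those 9, 5 had a smaller slope with the score, and of all 45, 24 did. The share of all probe sets with a smaller slope was not worked out, so this count is not particular to the carriers. The score and copy number went together in striatum, as given above, and what belongs to either cannot be fully told apart in 16 arrays. The median slope of the members with the score was 0.03, beside 0.01 over all probe sets.

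**Figure D4:**
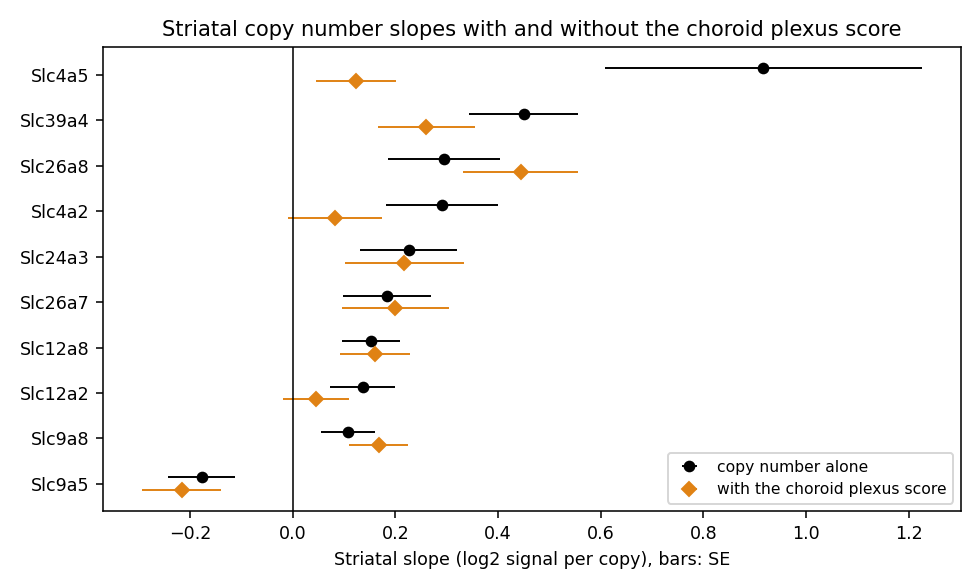
Striatal copy number slopes (log2 signal per copy, bars SE) without and with the choroid plexus score in the model, for the members at an unadjusted p under 0.05 in either fit. Slc4a5 goes from 0.92 to 0.12, Slc4a2 from 0.29 to 0.08 and Slc39a4 from 0.45 to 0.26, and Slc26a8 moves from 0.29 to 0.44.

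In hippocampus and in cerebellum, Slc4a5 and Slc4a2 had the smallest p on the score among the members. In hippocampus 2 of 45 members passed 5% FDR on the score, against 0.294% of all probe sets, Slc4a5 (1.55 per unit, adjusted p = 1.86e-06) and Slc4a2 (0.50, adjusted p = 0.00865). Both calls remained without Dup/+ 47. The call of Slc4a2 was lost with the plate as a block (adjusted p = 0.0775), in the wt arrays alone (adjusted p = 0.739) and without Del/+ 11 (adjusted p = 0.0839). In cerebellum 1 of 45 passed, against 0.165%, Slc4a5 (0.97, adjusted p = 0.00156; 1.10 with adjusted p = 0.213 in the wt arrays alone), while Slc4a2 had a coefficient of 0.19 (SE 0.0661). In the wt arrays, Slc4a5 had the largest SD of all tested members in hippocampus (0.866, from 4.40 to 7.28) and cerebellum (0.598) and the second largest in striatum (0.893), beside median member SDs of 0.156, 0.138 and 0.18. Its wt means of 5.72, 5.81 and 5.90 in hippocampus, striatum and cerebellum did not differ past 5% FDR between any pair of regions.

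In cerebellum the carrier with the smallest p was Slc30a3, which loads zinc into synaptic vesicles. It read 5.54, 5.83 and 5.93 in Del/+, 5.37 to 5.67 with a median of 5.58 in wt, and 5.201, 5.30 and 5.38 in Dup/+ cerebellum. The highest pair were Del/+ arrays and the lowest pair Dup/+ arrays, with a narrow overlap of each with wt. The slope was -0.24 per copy (SE 0.0581, adjusted p = 0.385), with adjusted p from 0.151 to 0.783 over the alternatives run, and it was negative within each plate, between -0.28 and -0.17. The highest Del/+ array was that of mouse 17, whose genotype labels differ between tissues, and without it the slope was -0.20 (adjusted p = 0.783). The engineered interval mean was 5.961 to 6.003 in the Del/+ cerebellar arrays, mouse 17 among them, against 6.496 to 6.645 in wt. With the choroid plexus score in the model the slope was -0.22 (SE 0.0612). The same gene had slopes of -0.01 (SE 0.0617) in hippocampus and 0.20 (SE 0.289) in striatum, where its wt values ran from 6.04 to 9.02.

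The other cerebellar carriers had p values above 0.05. Slc9a5 had a slope of -0.08 (SE 0.0451), Slc9a4, a sodium-proton exchanger, -0.13 (SE 0.079), Slc9a9 -0.10 (SE 0.0599), Slc26a4, the iodide and bicarbonate exchanger pendrin, 0.13 (SE 0.0856) and Slc39a8 0.10 (SE 0.0691). The wt means of Slc9a4 (3.79) and Slc26a4 (3.54) were below the cerebellar background level of 4.03, so their slopes here are those of background signal. Both passed a filter set over all brain arrays. For Del/+ against wt, 0 of 45 members passed 5% FDR, against 0.0877%, and 0 were at an unadjusted p under 0.05, against 4.9%, with Slc30a3 (0.21, SE 0.105), Slc26a7 (-0.21, SE 0.115) and Slc8a1 (-0.15, SE 0.0801) the nearest. For Dup/+ against wt, 0 of 45 passed, as did 0% of all probe sets, and 1 was at an unadjusted p under 0.05, against 3.9%, Slc30a3 (-0.26, SE 0.105), followed by Slc12a7 (-0.25, SE 0.125) and Slc26a2, a sulfate carrier (0.15, SE 0.083).

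In hippocampus, Slc26a8 was the only member at an unadjusted p under 0.05. It read 5.87, 6.12, 6.16 and 6.24 in Del/+, 6.25 to 6.71 with a median of 6.42 in wt, and 6.01, 6.56, 6.64 and 6.82 in Dup/+ hippocampus. Every Del/+ array was below every wt array, and the low Dup/+ array was Dup/+ 47, the one with the high striatal projection neuron markers. The slope was 0.20 (SE 0.0743, adjusted p = 0.668), and 0.29 (adjusted p = 0.0579) without Dup/+ 47, where 2 members were at an unadjusted p under 0.05. Slc26a8 had a lower wt mean in striatum (5.63) than in hippocampus (6.44). Its slope thus had the same sign, with p under 0.05, in hippocampus and striatum, and in both regions it missed 5% FDR.

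For Del/+ against wt in hippocampus, 0 of 45 members passed 5% FDR, against 0.119%, and 3 were at an unadjusted p under 0.05, a share of 6.67% against 6.4%. These were Slc4a8, a sodium-driven chloride-bicarbonate exchanger of neurons (0.21, SE 0.0733), Slc26a8 (-0.34, SE 0.126) and Slc26a10 (0.30, SE 0.127). Slc4a8 read 7.99 to 8.10 in the Del/+ arrays and 7.68 to 7.99 in the wt arrays, so the lowest Del/+ array lay just under the highest wt array. For Dup/+ against wt, 0 of 45 passed, against 0.0516%, and 0 were at an unadjusted p under 0.05, against 4.76%, with Slc30a7, a zinc carrier of the secretory pathway (0.17, SE 0.0842), Slc39a4 (0.28, SE 0.147) and Slc4a2 (0.31, SE 0.181) the nearest. By copy number, Slc4a8 (-0.09, SE 0.0453), Slc26a10 (-0.16, SE 0.0754), Slc24a4 (0.12, SE 0.0637), Slc26a7 (-0.14, SE 0.0837) and Slc4a3, an anion exchanger (0.08, SE 0.0439), followed Slc26a8.

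The calcium extruders of neurons had small slopes. Slc8a1, Slc8a2 and Slc8a3, the sodium-calcium exchangers, had slopes of -0.02, -0.04 and 0.09 in hippocampus, 0.10, -0.12 and 0.01 in striatum and 0.06, 0.08 and 0.07 in cerebellum, with no p under 0.05. Slc24a2, a potassium-dependent sodium-calcium exchanger, had slopes of -0.02, 0.01 and -0.01. Slc26a11, an anion carrier of the choroid plexus and neurons, had a striatal slope of 0.07 (SE 0.0536). A p above 0.05 does not show that the genotypes were alike.

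Whether a slope differed between brain regions was tested with limma on all 44 brain arrays. At an unadjusted p under 0.05 there were 6 of 45 members for striatum against hippocampus (13.3%, against 7.67% of all probe sets), 0 for cerebellum against hippocampus, against 4.25%, and 7 for cerebellum against striatum (15.6%, against 8.07%). Of the 45 members, 0 passed 5% FDR for striatum against hippocampus, as did 0% of all probe sets, 0 for cerebellum against hippocampus, as did 0%, and 0 for cerebellum against striatum, against 0.0206%. The smallest p values were those of Slc39a4 for cerebellum minus striatum (-0.47, adjusted p = 0.436), with Slc4a5 (-1.18, SE 0.446) and Slc24a3 (-0.27, SE 0.103) after it, and of Slc26a7 (0.33, SE 0.115), Slc24a3 (0.27, SE 0.0951) and Slc4a8 (0.22, SE 0.0786) for striatum minus hippocampus.

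Among the 45 carriers that passed the filter, the wt brain regions differed in most. The filter kept probe sets by their variance over the 44 brain arrays of all regions, which favours those that differ between regions. The shares below are thus those of filtered probe sets, for the members and for all probe sets alike. Relative to wt hippocampus, 11 of 45 members were higher in wt striatum past 5% FDR, against 15.2% of all probe sets, and 12 were lower, against 16.4%. Cerebellum against hippocampus gave 18 higher, against 33.4%, and 16 lower, against 26.8%, and cerebellum against striatum gave 20 higher, against 33.7%, and 15 lower, against 26.8%. As shares of the members these are 24.4% and 26.7%, 40% and 35.6%, and 44.4% and 33.3%.

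Slc30a3 had wt means of 9.37 ± 0.15 (SD, n = 8) in hippocampus, 7.43 ± 1.02 (n = 8) in striatum and 5.55 ± 0.11 (n = 6) in cerebellum, and the regions fell in that order, with differences of -1.94 for striatum and -3.82 for cerebellum against hippocampus. Its striatal wt arrays spread from 6.04 to 9.02, with wt 29 and wt 44 at 8.71 and 9.02 and the other 6 at or below 7.48. Slc24a4, a potassium-dependent sodium-calcium exchanger, went from 9.74 in striatum and 8.78 in hippocampus to 5.30 in cerebellum (cerebellum against striatum -4.44, adjusted p = 6.06e-21). Slc9a4 was highest in hippocampus, at 7.39 against 3.82 in striatum and 3.79 in cerebellum, below background in both (striatum against hippocampus, adjusted p = 9.88e-16). Where 1 side was below background, the difference is given as a bound, the brighter mean against the background level of the dimmer region. Slc9a4 was thus at least 9.86-fold higher in hippocampus than in striatum and at least 10.3-fold higher than in cerebellum. Slc26a4 was at 6.18 in hippocampus, 4.24 in striatum and 3.54 in cerebellum, below background in the last, and at least 4.45-fold higher in hippocampus than in cerebellum.

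Slc9a3, the sodium-proton exchanger best known from kidney and gut, was at 6.68 in cerebellum and at 4.08 and 3.71 in hippocampus and striatum, below background in both, and so at least 5.86-fold and 6.02-fold higher in cerebellum. Slc4a11 was at 6.31 in striatum against 4.47 and 4.28 in hippocampus and cerebellum, and Slc26a5, prestin, known as the motor protein of cochlear outer hair cells, at 4.91 against 3.73 and 3.57, below background in both, and so at least 1.72-fold and 1.84-fold higher in striatum. Slc26a10 was at 7.39 in striatum, 6.85 in hippocampus and 5.29 in cerebellum. Slc8a1 and Slc24a3 were lower in striatum than in hippocampus (differences of -1.41 and -1.20), and Slc9a2 was lower in cerebellum than in hippocampus (-2.05).

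**Figure D5:**
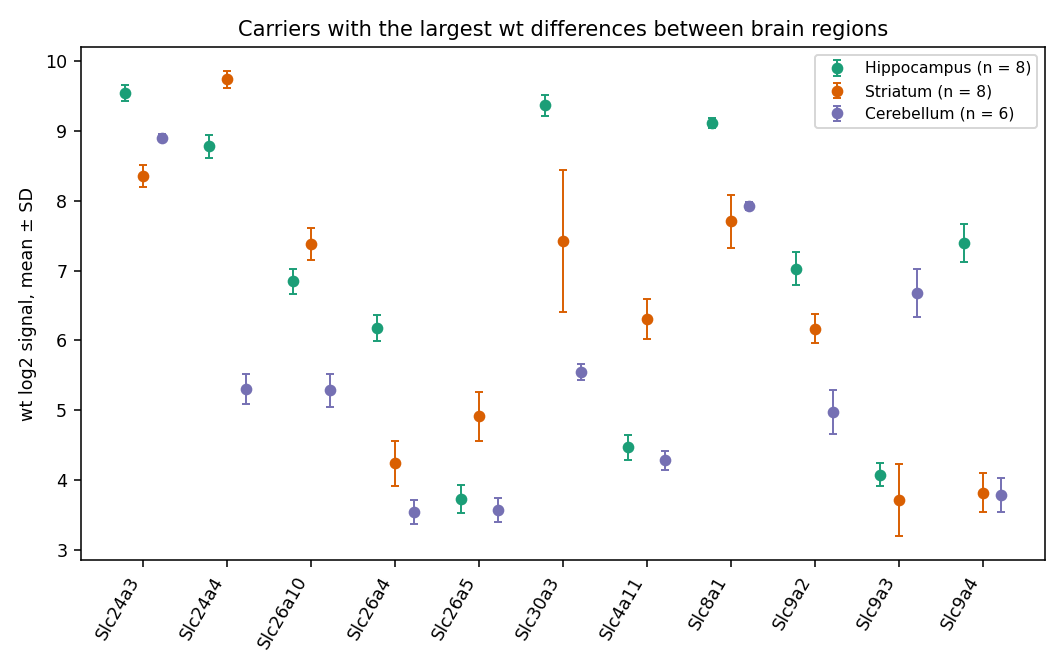
Wt log2 signal (mean ± SD) in hippocampus, striatum and cerebellum of the 11 carriers with the largest differences between regions. Slc30a3 descends from 9.37 to 7.43 to 5.55, with a striatal SD of 1.02, Slc24a4 drops from 9.74 in striatum to 5.30 in cerebellum, and Slc9a4 is at 7.39 in hippocampus and below background in striatum and cerebellum.

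Several of these genes set the striatal arrays Dup/+ 21 and Dup/+ 47 apart. Slc4a11, Slc26a5, Slc26a10, Slc24a4 and Slc8a2 each had their lowest striatal values there, and all of them but Slc8a2 were higher in wt striatum than in wt hippocampus past 5% FDR. Slc24a3 and Slc8a1, lower in wt striatum than in wt hippocampus, were among their highest there. Slc26a5 read 3.94 and 4.18 in Dup/+ 21 and Dup/+ 47 against 4.23 to 5.48 in wt, and Slc24a4 read 9.04 and 8.85 against 9.53 to 9.91. Wt 44 had the lowest wt striatal value of Slc4a11, Slc26a5, Slc26a10 and Slc24a4 and the highest of Slc24a3 (8.68), Slc8a1 (8.37) and Slc30a3. These genes were named here after their values were seen, and the part of dissection in them was not tested.

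Genes that work with these carriers were looked at in the same fits, in lists chosen with earlier results of these data known. Over all tested probe sets, 9.04% were at an unadjusted p under 0.05 in striatum, 5.03% with a positive slope. The share was 6.25% in cerebellum and 7.19% in liver. The counts of the lists were not tested against these shares. Of 7 tested sodium, proton and calcium pump genes, 2 had a positive striatal slope at an unadjusted p under 0.05, Atp1b2, a sodium pump subunit of glia (0.23, SE 0.0644), and Fxyd1, a sodium pump regulator (0.21, SE 0.0927). Of 11 carbonic anhydrases, which supply bicarbonate, Car13 (0.20, SE 0.0843) and Car15 (-0.14, SE 0.0597) were at that level in striatum. Wnk4, 1 of 3 tested genes of the WNK and SPAK kinases that regulate the Slc12 carriers, had a slope of -0.25 (SE 0.104), and Slc31a1, a copper importer and 1 of 8 tested metal-handling genes, one of 0.22 (SE 0.095). In liver, Mt1, the zinc-binding metallothionein, had a slope of -0.32 (SE 0.168), and 0 of 12 tested metal-handling genes were at an unadjusted p under 0.05. In cerebellum the calcium pump Atp2b4 had a slope of 0.25 (SE 0.0617), Car7 one of -0.15 (SE 0.0463), the metal carrier Slc11a1 one of -0.16 (SE 0.0603) and the iron exporter Slc40a1 one of 0.15 (SE 0.0639). None of these genes passed 5% FDR in any tissue. Astrocyte markers also had positive striatal slopes, 3 of 7 at an unadjusted p under 0.05 with a median of 0.19, and their part in the Atp1b2 value was not tested.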

How the data were processed

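The data comprise 56 arrays, each holding RNA of a single mouse and tissue. Signals deposited by the authors are normalized values from Affymetrix Expression Console, and their log2 scale was read from the values. Brain and liver arrays were quantile normalized separately by the authors, so brain and liver were never tested together. Array medians ran from 4.81 to 4.89 in brain and from 3.58 to 3.65 in liver. The number of arrays limits the precision. Replicates were taken as separate mice by the number that ends each array title, which the titles do not call a mouse number.

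A probe set was tested if its highest signal reached the median of all signals and its variance exceeded the 25th percentile, over the 44 brain or the 12 liver arrays. This left 19389 and 18982 probe sets. Per tissue, limma (version 3.58.1, R 4.3.3) was fitted with copy number coded -1, 0 and 1, with genotype as groups, and with copy number and the choroid plexus score. Region differences used the brain arrays together. P-values were adjusted by the Benjamini-Hochberg method over all tested probe sets, with calls at 5%. Single scores were tested by exact permutation, and correlations by permutation (numpy 2.4.6, pandas 2.3.3, Python 3.11.15). The fits were tested on simulated data. P-values measure the spread between these arrays, in which the part of the mice and that of the dissection were not separated.

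The members and marker lists were chosen with earlier results of these data known. Members named are, in each tissue, the 6 with the smallest p by copy number and the 3 by genotype, the 6 with the largest wt difference for each pair of regions, members that followed the score, carriers known in choroid plexus, neurons or liver, genes whose probe sets differ in direction, and, from other lists, up to 2 genes a tissue. Alternatives were no filter, a filter within the tissue, the log2 copy ratio, the plate as a block, a variance trend, renewed normalization, a score from the 4 measured of 5 defining choroid plexus markers, wt arrays alone, the mouse number as a block and leaving out arrays.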

Additional observations from a re-analysis of the deposited data

Results flagged for a closer look

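In 3 of 83 groups of 4 to 8 arrays checked, 1 array lay far from the rest, and chance gives about 1 in 20 groups. Slc39a8 read 4.417 in the wt cerebellum of mouse 16, against 4.763 in the nearest of the other arrays. Slc12a4 read 5.528 in the wt liver of mouse 10, against 6.478 in the nearest. Slc8a3 read 2.927 in the same liver, against 3.571.

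Of 24 pairs of tissues checked for single genotypes, 3 had every array of 1 tissue above and every array of the other below the wt mean. The pairs were drawn from members named in both tissues for small p values, which favours groups on 1 side of the wt mean. How often all probe sets give such pairs was not worked out. Slc39a4 in Dup/+ differed from the wt mean by 0.726 in striatum and by -0.5828 in liver. Slc12a7 in Dup/+ differed by -0.2492 in cerebellum and by 0.1553 in liver. Slc4a1 in Del/+ differed by 0.1845 in striatum and by -0.357 in liver. These differences between tissues were not tested, since the brain and liver tables were normalized separately.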

How the results depend on the processing

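No carrier passed 5% FDR by copy number in any tissue under any alternative run, but some directions turned. Striatal Dup/+ against wt for Slc26a10 went from -0.59 to 0.0721 without Dup/+ 21 and Dup/+ 47 and to 0.0035 with the thalamus and midbrain score, both chosen for this comparison after seeing the data, and without both arrays 11 of 45 striatal slopes took the other sign, among them Slc8a2 (-0.12, then 0.01). The counts of members at an unadjusted p under 0.05 moved too, and the share of all probe sets at that level stands after each. In hippocampus, 1 (6.31%) became 2 with no filter (5.53%), 3 with the log2 copy ratio (6.51%), 3 with a variance trend (6.39%), 3 with renewed normalization (6.27%) and 4 with the choroid plexus score (6.1%), and it was 1 to 4 with 1 array left out (5.26% to 6.98%). In striatum, 9 (9.04%) became 5 with the choroid plexus score (5.35%), 4 without Dup/+ 21 and Dup/+ 47 (5.72%) and 3 with the thalamus and midbrain score (4.92%), and 4 to 11 with 1 array left out (6.24% to 10.7%). In cerebellum, 1 (6.25%) became 4 with no filter (5.81%) and 1 to 2 with 1 array left out (5.51% to 7.19%), and in liver 1 (7.19%) became 1 to 2 (5.49% to 8.06%). Striatal Dup/+ against wt gave 0 to 3 members past 5% FDR, the 3 without Dup/+ 19. Members following the choroid plexus score past 5% FDR went in hippocampus from 2 to 1 in wt arrays alone, to 1 with the plate as a block and to 1 to 2 with 1 array left out, and in cerebellum from 1 to 0 in wt arrays alone, which are fewer arrays. The striatal slope of the score on copy number was 0.42 to 0.75 with 1 array left out (exact permutation p = 0.0013 to 0.096). The cause of the other shifts was not tested.

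Mouse numbers recur across tissues. Arrays of the same number had correlations of their deviations from the group means between -0.118 and 0.0892, so they were not treated as pairs. With the mouse number as a replicate block, 0, 0 and 0 members passed for the 3 slope differences, and 23, 34 and 35 for wt striatum against hippocampus, cerebellum against hippocampus and cerebellum against striatum, as without it.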

Other observations

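In hippocampus, genes that work with the carriers gave 0 of 7 pump genes, 2 of 11 carbonic anhydrases, 0 of 3 WNK and SPAK genes and 0 of 8 metal-handling genes at an unadjusted p under 0.05. The carbonic anhydrases were Car5b (slope 0.14, SE 0.046) and Car7 (-0.12, SE 0.0528). In liver, 2 of 6 pump genes were at that level, Atp4a (-0.28, SE 0.117) and Atp2a2 (-0.20, SE 0.0901), and Stk39, the SPAK kinase, had a slope of 0.20 (SE 0.0808), while 0 of 7 carbonic anhydrases were at that level. None of these passed 5% FDR. Of all tested probe sets, 6.31% were at an unadjusted p under 0.05 in hippocampus and 7.19% in liver.

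The hippocampal array of Dup/+ 47 held several end values among the carriers. Its Slc4a11 signal of 5.37 was above the 4.145 to 4.807 of the other hippocampal arrays, and its Slc9a4 signal of 6.66 was below their 6.95 to 8.05.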
